A study of Sus scrofa with 15 samples.

Results

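Kidneys of 5 pigs given remote ischemic preconditioning immediately before renal ischemia (rIPCe) were compared with kidneys of 5 control pigs that had the same ischemia and no preconditioning. Each array holds RNA from 1 pig, so the spread within a group is that between animals. The groups were taken from the sample titles, group 2 for rIPCe and group 1 for control, which makes 10 of the 15 arrays of the series. The other 5 arrays hold kidneys of pigs preconditioned in a late window, a day before the ischemia (rIPCl), and entered the normalization, the estimate of the spread and the comparison of the windows alone. Every animal was a female Yorkshire pig, all of the same age by the study's methods, and had first lost its left kidney, so that the right kidney was the only one. For preconditioning, the right external iliac artery, which feeds the hind limb, was clamped and released in repeated short cycles. Anesthesia, antibiotic, analgesic and the time of sacrifice were the same in all groups. The renal artery and vein were then clamped together for 90 minutes of warm ischemia in both groups, and kidney tissue was taken at 72 hours. No kidney without ischemia was analysed here, so each difference below lies between groups of injured kidneys. The question is which transcripts differed in the injured kidney when a distant limb had been made ischemic just beforehand.

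When blood returns to an ischemic kidney, the proximal tubule suffers most, since it depends on oxidative metabolism to drive the reabsorption of salts, sugars and amino acids. In the days that follow, surviving tubule cells lose specialised functions and divide to refill the tubule, macrophages and other leukocytes enter, complement and coagulation proteins are made or deposited, and fibroblasts lay down matrix. Remote preconditioning is the procedure in which brief ischemia of a distant tissue is used to change how an organ tolerates a later, longer ischemia.

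Markers of the kidney were bright in both groups, as the tissue label says. FBP1, a gluconeogenic enzyme of the proximal tubule and the brightest of its markers, had a normalized log2 signal of 16.56 to 17.75 on the control arrays and 16.46 to 17.02 on the rIPCe arrays. CALB1, the calcium-binding calbindin of the distal tubule, ranged from 13.54 to 14.40 and from 11.49 to 14.82. CLIC5, a podocyte gene, ranged from 13.81 to 14.20 and from 13.66 to 14.55, and ACE, angiotensin-converting enzyme, from 15.59 to 16.23 and from 15.99 to 16.41. Of the proximal tubule markers 27 of 50 had a named probe, 26 of them well above background in at least 1 whole group. LRP2 and UMOD were not among the genes named here. In tissue of mixed cells, fewer cells of a type and less RNA per cell cannot be told apart, which holds for each difference given below.

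The arrays came from 3 slides that divide the groups unevenly. Slide 1 held control 1 to 4, slide 2 held control 5 and rIPCe 1 to 3, and slide 3 held rIPCe 4 and 5. The median processed signal was 70.1 to 98.7 on control and 75.7 to 110 on rIPCe arrays, and 62.2% to 69.5% and 67.4% to 73.9% of the spots were well above background, which is the scanner software's flag for a spot clearly brighter than its surroundings. On the leading principal component of the 10 arrays, with 19% of the variance, the 4 arrays of slide 2 lay lowest, from -80.7 to -32.5, whatever their group. Control 1 stood apart from its group: on that component it lay at -2.16, while control 2, 3 and 4 lay from 52.3 to 72.0. On the next component, with 17.4% of the variance, rIPCe 1 lay at 57.8, beside control 5 at 54.7, and the other 4 rIPCe arrays lay from -79.0 to 1.44. The mean correlation of an array with its own group was 0.973 to 0.980 in the control group and 0.978 to 0.982 in rIPCe.

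**Figure D1:**
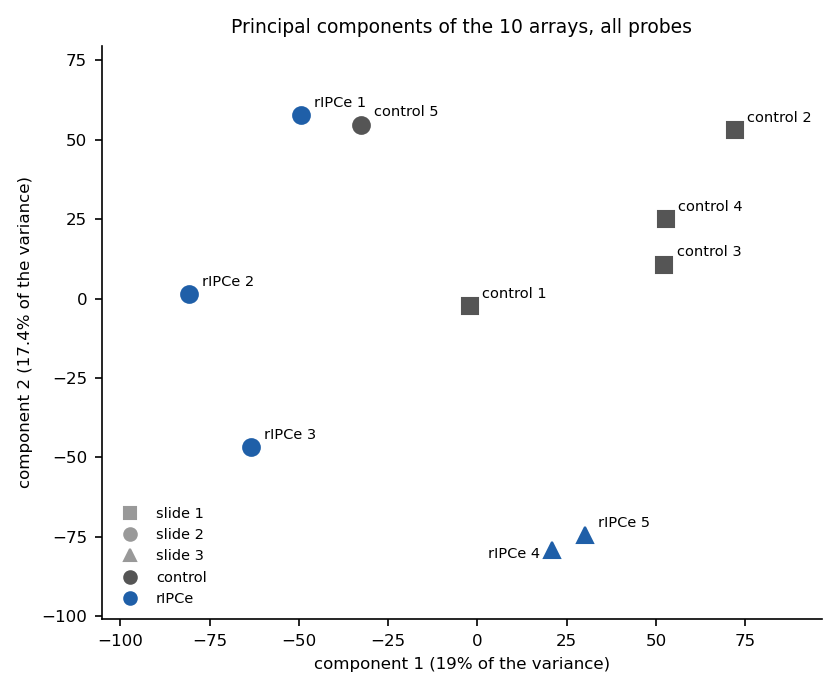
Each point is 1 of the 10 arrays at its scores on the principal components of all probes, with the share of the variance on each axis, colour for the group and shape for the slide. The arrays of slide 2 lie at the left, control 1 lies between the slides, and rIPCe 1 lies next to control 5.

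Of 43603 probes, 952 differed by at least 2-fold with an unadjusted p under 0.05 in limma, which is 2.18%, and 552 of them were higher and 400 lower in rIPCe. With each array's upper quartile subtracted in place of quantile normalization the split was 529 higher and 619 lower. After Benjamini-Hochberg adjustment 1 probe passed, or 0.00229%, and it carries no gene name here. A gene symbol could be given to 6686 probes of 3020 genes, each gene read from its brightest probe, and 2499 of these genes had a whole group of arrays well above background. At the unadjusted criteria 47 genes were higher and 34 lower in rIPCe, or 1.56% and 1.13% of the 3020. Counts of list members past these criteria, given below, stand beside these shares. No gene passed after the adjustment, which was over all probes, with a smallest adjusted p of 0.166. At an unadjusted p under 0.05, 181 genes (5.99%) were higher and 304 (10.1%) lower. The words higher and lower in the accounts of single genes below refer to the means of the groups, and a gene is said to have risen or fallen only where it passed the 2-fold and unadjusted criteria. An exact p below is that of a two-sided permutation test of 1 gene over all 252 assignments of the arrays to groups, whose smallest value is 0.00794, and is not adjusted for the number of genes. The middle of all genes lay at a log2 fold change of -0.031, with 5% of the genes under -0.69 and 5% over 0.72.

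Of the 81 genes past the criteria, 55 had a whole group of arrays well above background and 54 of these have a gene symbol other than a locus number. They make up 37 that rose and 17 that fell. Those that rose were led by cell division genes, by lysozyme and the chemokine CXCL11, by complement and matrix genes, and by the Wnt antagonist DKK2. Those that fell were led by the apolipoproteins APOA4 and APOC3 and by the detoxifying enzymes NQO1 and CYP1A1. Of the 54, 33 had an exact p under 0.05 and 21 did not. All 54 kept their sign under each setting tried, but their size moved with single arrays. The settings reuse the arrays on which the genes were chosen, so the kept sign is not an independent check.

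**Figure D2:**
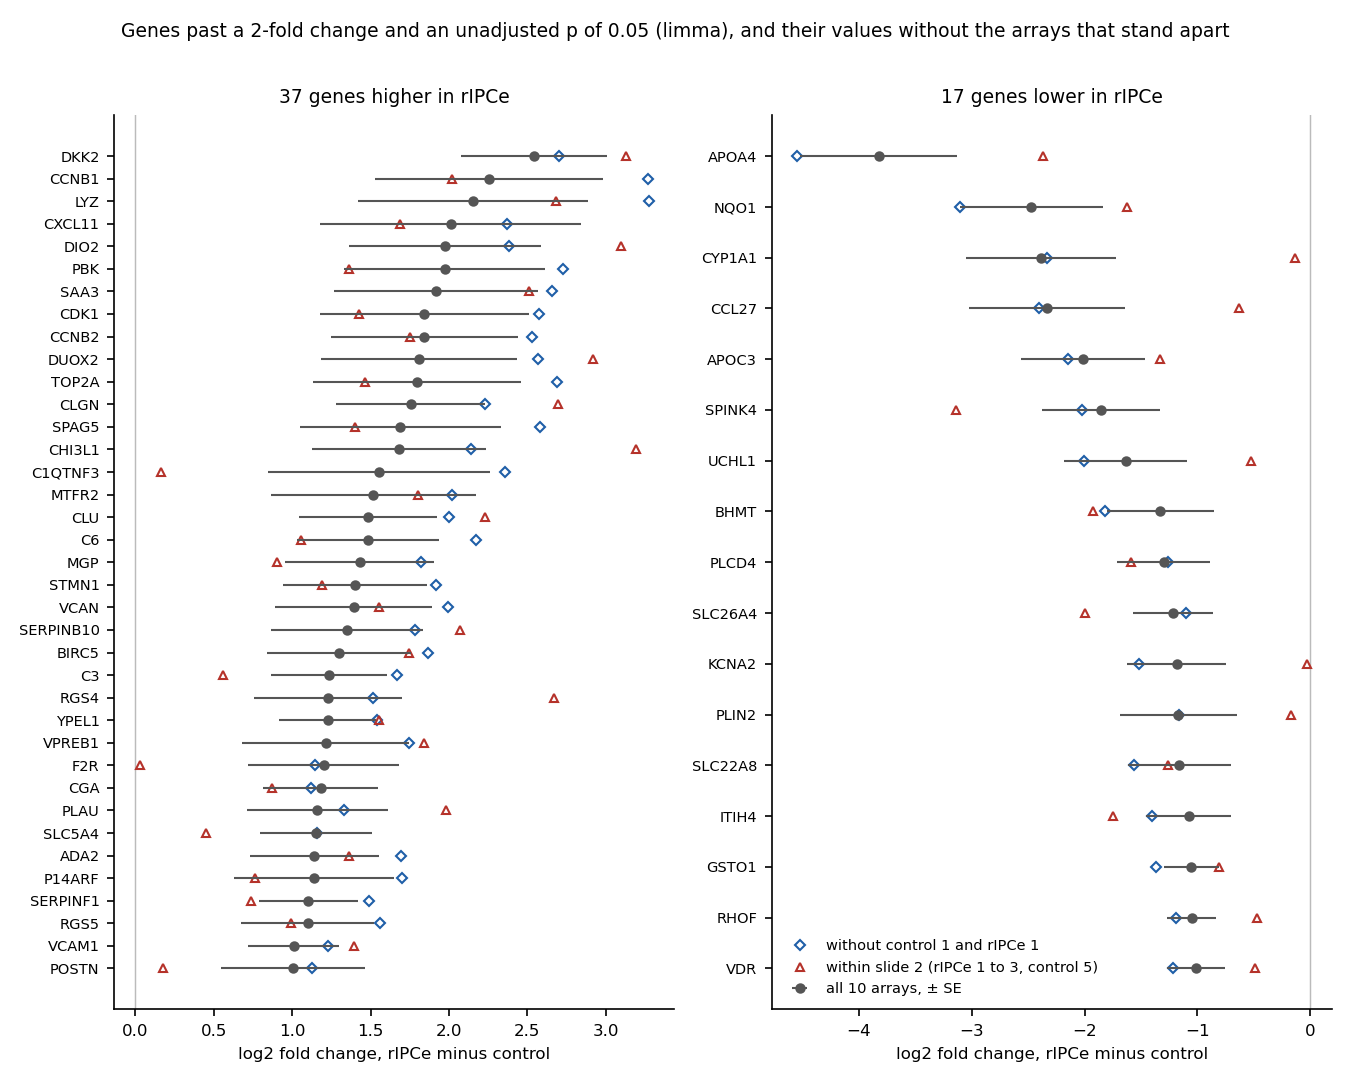
Log2 fold change of rIPCe over control for the 37 genes that rose and the 17 that fell, as the estimate from all arrays with its SE (dot and bar), the value without control 1 and rIPCe 1 (diamond), and the difference within slide 2 (triangle). Each marker lies on the same side of 0 as its gene's dot, and the triangles of F2R, KCNA2, CYP1A1, C1QTNF3, PLIN2 and POSTN lie near 0.

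Control 1 and rIPCe 1 were often the arrays of their group nearest to the other group. Among the 37 genes that rose, control 1 was the highest control array in 30 and lay within the range of the rIPCe arrays in 32, and rIPCe 1 was the lowest rIPCe array in 21 and lay within the range of the controls in 30. In these genes rIPCe 4 and 5 also lay within the control range in 21 and 23. Just 1 of the 37 had all rIPCe arrays above all control arrays, but 14 did without control 1 and 10 without rIPCe 1. Among the 17 that fell, rIPCe 1 was the highest rIPCe array in 11, and the number with separate groups was 4 with all arrays and 9 without rIPCe 1. With both arrays left out, 1786 probes met the unadjusted criteria and 333 the adjusted ones. The number of probes higher at the unadjusted criteria was 552 with all arrays and 809 without control 1. It was 819 without rIPCe 1 and 407 without rIPCe 2 and 3. Without control 2, 3, 4 or 5 it was 446, 515, 496 or 684. Without rIPCe 2, 3, 4 or 5 it was 462, 457, 616 or 669. List counts given below for these settings stand beside these totals. Over all genes, 14 (0.464%) had the rIPCe arrays all above and 62 (2.05%) all below the control arrays. Slide 2 is the 1 slide that holds both groups, and the fit with slide as a block gave the same estimates as the difference of its 3 rIPCe arrays from control 5. In that fit 15 of the 54 genes still met the unadjusted criteria. Its calls, here and below, rest on control 5 as the lone control array, which is assumed to vary like the arrays of the other slides.

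Most of the measured genes of mitosis rose. Of 12 measured members of the list for mitosis and chromosome segregation, 7 rose, 0 fell and all 12 had a positive log2 fold change, with a median of 1.35, where 1.56% of all genes rose. CCNB1 and CCNB2 are the B-type cyclins that switch on CDK1 at the entry into mitosis, TOP2A untangles the DNA of the chromosomes, BIRC5 (survivin) and SPAG5 (astrin) act at the spindle and the centromere, and STMN1 (stathmin) takes microtubules apart. The log2 signal of CCNB1 was 10.10, 7.35, 6.41, 6.46 and 8.32 on control 1 to 5, and 8.29, 11.79, 10.93, 9.85 and 9.06 on rIPCe 1 to 5. The groups overlapped: control 1 lay above 3 of the rIPCe arrays, and rIPCe 1 lay just under control 5. The log2 fold change of CCNB1 was 2.25 ± 0.73 (SE, n = 5 each), with an exact p of 0.0635.

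Other members showed the same pattern over the arrays. STMN1 read 13.89, 11.82, 12.25, 11.53 and 13.09 in the control group, and 13.21, 14.95, 14.67, 13.57 and 13.17 in rIPCe, a log2 fold change of 1.40 ± 0.46. For CDK1 the control arrays gave 11.28, 8.13, 8.14, 7.59 and 10.00 and the rIPCe arrays gave 10.21, 12.21, 11.86, 10.39 and 9.70, a difference of 1.84 ± 0.67. In both genes rIPCe 2 and 3 were highest and control 2, 3 and 4 lowest, with control 1, control 5 and the other rIPCe arrays between them. Log2 fold changes were 1.84 ± 0.60 for CCNB2, 1.80 ± 0.67 for TOP2A, 1.69 ± 0.64 for SPAG5 and 1.30 ± 0.46 for BIRC5. PBK, a mitotic kinase outside the list, rose by 1.97 ± 0.64 and its 3 other probes gave 1.27 to 1.74. AURKA, the spindle pole kinase, was higher by 0.83 ± 0.45 without passing (exact p = 0.159).

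The level of the whole list on an array, the median over its members of the signal minus the control mean, was 1.33, -0.50, -0.67, -0.75 and 0.56 in control 1 to 5, and 0.55, 2.47, 2.17, 0.99 and 0.63 in rIPCe 1 to 5. So 2 of the 5 rIPCe arrays lay above every control array. Without control 1 the number that rose was 9 of 12, and without rIPCe 2 and 3 it was 0 of 12 with a median of 0.71. Over all probes 809 and 407 were higher at the same criteria in these fits, beside 552 with all arrays. Within slide 2 the level of rIPCe 1 (0.55) lay beside that of control 5 (0.56), the lone control array there. Those of rIPCe 2 and 3 lay above both, and the median of the list was 1.45. By contrast 0 of 8 measured genes of DNA replication and the passage from G1 to S passed at p under 0.05. Their median was 0.11, with -0.29 for CDK4, the kinase that acts in G1. P14ARF, an inhibitor of MDM2, rose by 1.14 ± 0.51 and was well above background on 2 of the 5 control arrays.

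**Figure D3:**
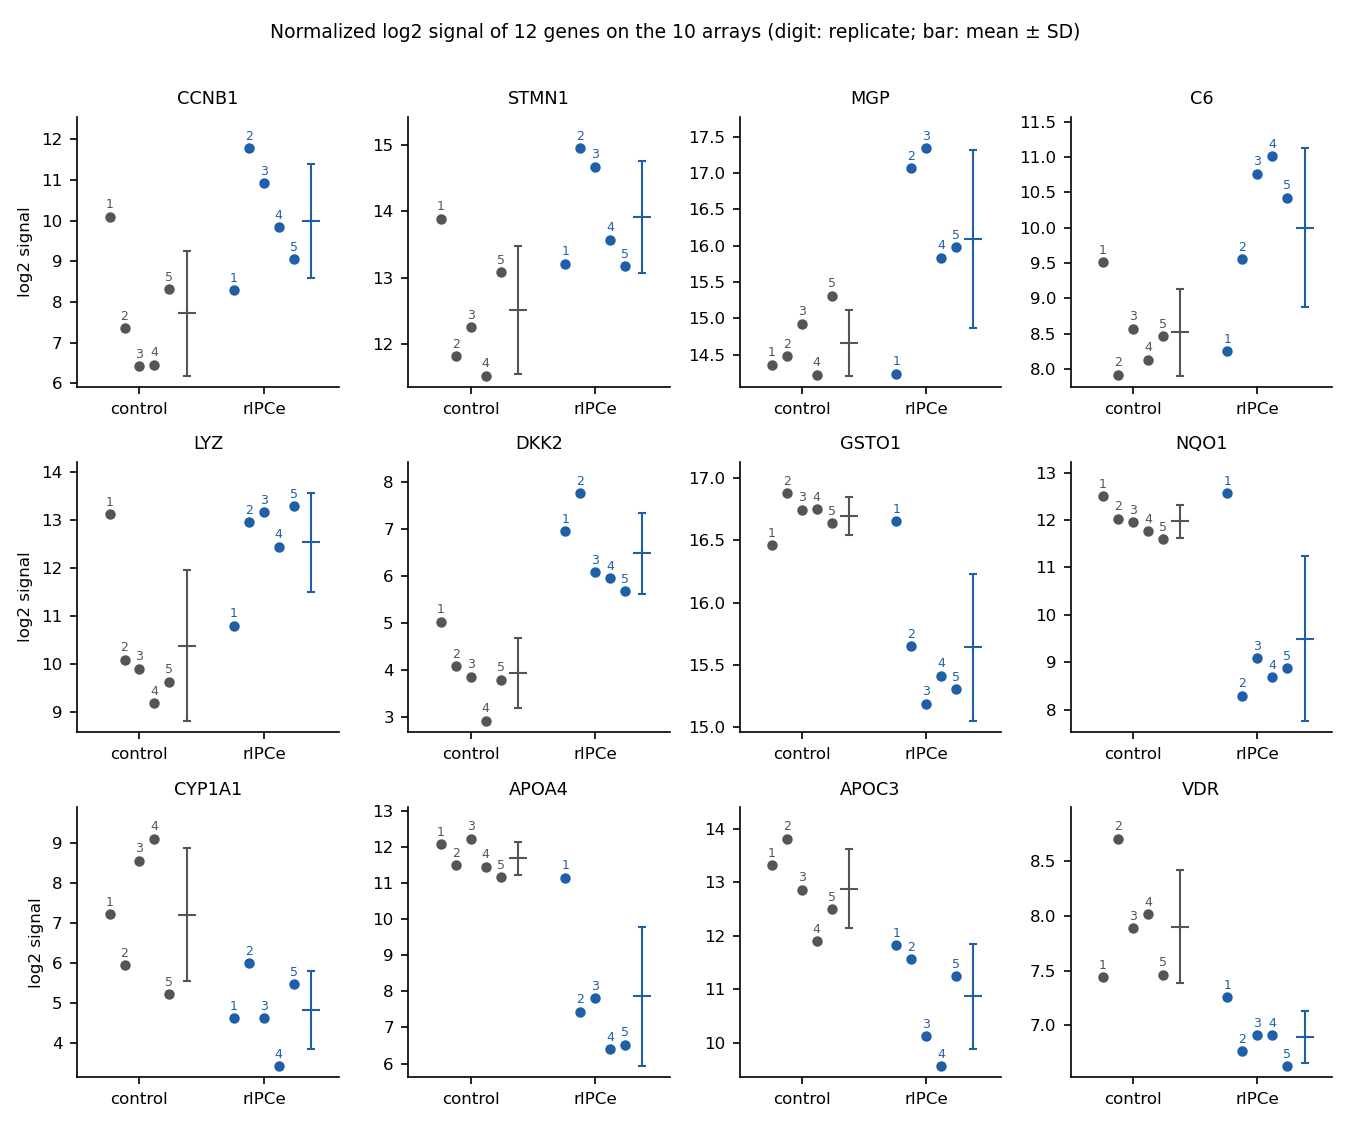
Normalized log2 signal of 12 genes on the 5 control (grey) and 5 rIPCe (blue) arrays, with the replicate number beside each point and the mean ± SD at its right; each panel has its own axis. DKK2, APOA4, APOC3 and VDR have separate groups, control 1 stands above the other controls for CCNB1 and LYZ, and rIPCe 1 stands with the controls for GSTO1 and NQO1.

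Matrix genes were mostly higher in rIPCe. Of 29 measured members of the list for the extracellular matrix and its turnover, 3 rose and 0 fell. Of all genes 1.56% rose and 1.13% fell. The log2 fold change was positive in 26 of the 29, and the median was 0.47. MGP, the matrix Gla protein that inhibits calcification, rose from 14.36, 14.48, 14.93, 14.22 and 15.31 in the control group to 14.24, 17.07, 17.34, 15.84 and 15.98 in rIPCe. All rIPCe arrays but the first lay above all control arrays, and the log2 fold change of 1.43 ± 0.48 became 1.90 without rIPCe 1 and 0.90 within slide 2. VCAN (versican), a large proteoglycan, rose by 1.39 ± 0.50, and POSTN (periostin), which is made by activated fibroblasts, by 1.01 ± 0.46 with 0.18 within slide 2.

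Other matrix members differed by less than 2-fold. DCN (decorin), which binds collagen, read 13.93, 14.25, 13.88, 13.31 and 14.54 in control and 13.99, 15.27, 15.70, 14.83 and 14.85 in rIPCe, a difference of 0.95 ± 0.31 (exact p = 0.0238). ITGAV, the integrin alpha chain that takes part in activating TGF-beta, was higher by 0.44 ± 0.13 (exact p = 0.0159), and MMP14, a membrane-bound metalloproteinase, by 0.47 ± 0.15 (exact p = 0.0238). In ITGAV rIPCe 1 alone lay within the control range.

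Of 11 markers of fibroblasts and mural cells 2 rose, POSTN and the pericyte gene RGS5 (1.10 ± 0.43), where 1.56% of all genes did. The median was 0.60. It was 0.18 within slide 2. Without rIPCe 2 it was 0.36 and without rIPCe 3 it was 0.32, each with 0 members rising. The number that rose was 1 without control 1, 3 or 4 or rIPCe 4. It was 4 without control 2 or 5 or rIPCe 1. The level of that list was 0.061, 0.94, 1.35, 0.20 and -0.082 on rIPCe 1 to 5 against -0.20 to 0.17 in the control group, with rIPCe 2 and 3 far above the rest. The contractile markers ACTA2 (-0.19) and CNN1 (-0.34) were not higher. The part of cell content in the matrix values was not tested. Without rIPCe 2 and 3 the matrix median was 0.105 and 0 members rose. SERPINF1, a secreted inhibitor of vessel growth, rose by 1.10 ± 0.32, and C1QTNF3, a secreted relative of adiponectin, by 1.55 ± 0.71 with 0.16 within slide 2.

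Complement genes were higher in rIPCe at several steps. Among 29 measured members 3 rose and 0 fell, where 1.56% and 1.13% of all genes did, and 21 had a positive log2 fold change. At an unadjusted p under 0.05, 10 were higher and 2 lower, where 5.99% and 10.1% of all genes were. The median was 0.45. Of the central and terminal components, C3, on which all activation routes meet, rose by 1.24 ± 0.37 (exact p = 0.0476), and C6, which joins the membrane attack complex, by 1.48 ± 0.45 (exact p = 0.0476). For C6 the control arrays read 9.51, 7.92, 8.57, 8.13 and 8.47 and the rIPCe arrays 8.25, 9.55, 10.76, 11.02 and 10.43. Every rIPCe array but the first lay above every control array, and without rIPCe 1 the difference was 1.92. C7, the next protein of that complex, was higher by 0.68 ± 0.21 (exact p = 0.0159).

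Activators and regulators did not all move one way. CFB, the protease of the alternative pathway, was higher by 0.74 ± 0.21 (exact p = 0.0159), and C1S, a protease of the classical pathway, by 0.56 ± 0.20 (exact p = 0.0476). CLU (clusterin), which keeps the terminal complex out of membranes and is also a marker of injured tubules, read 16.20, 13.42, 14.82, 15.28 and 14.30 in control and 15.63, 17.05, 16.91, 16.37 and 15.48 in rIPCe. The difference was 1.48 ± 0.44 (exact p = 0.0317) and 2.23 within slide 2. CD46, a regulator on cell membranes that helps to inactivate C3b, went the other way: it read 6.15, 5.87, 5.82, 6.20 and 5.67 in control and 5.58, 5.14, 5.12, 5.20 and 5.18 in rIPCe. The groups of CD46 did not overlap, the log2 fold change was -0.70 ± 0.14 (exact p = 0.00794), and its size is under 2-fold. Within slide 2 the median of the complement list was 0.56, with differences of 0.56 for C3 and 1.06 for C6. The number of complement genes that rose was 6 without control 1 and 1 without rIPCe 2 and 3.

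In coagulation and fibrinolysis 2 of 23 measured genes rose and 0 fell, where 1.56% and 1.13% of all genes did. Of the 23, 12 had a positive and 11 a negative log2 fold change, and the median was 0.057. PLAU (urokinase), the plasminogen activator of tissues, rose by 1.16 ± 0.45 (exact p = 0.0635), and F2R, the thrombin receptor, by 1.20 ± 0.48 (exact p = 0.0397). In F2R control 5 stood at 9.54 against 7.67 to 7.97 on the other controls, and its difference within slide 2 was 0.027. PLAT, the tissue plasminogen activator, read 13.92, 12.79, 12.67, 13.22 and 13.36 in control and 13.61, 14.79, 14.18, 14.03 and 13.71 in rIPCe, a difference of 0.87 ± 0.27 (exact p = 0.0238). F12, which starts the contact pathway, was higher by 0.98 ± 0.29 (exact p = 0.0238). Among the 11 members with a negative value were FGG (-1.24), F9 (-0.91) and PLG (-0.81), none of the 11 at an unadjusted limma p under 0.05.

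Of 36 measured chemokines and receptors 1 rose, 1 fell and the median was 0.21. Without control 1 the number that rose was 6 with a median of 0.56, and without rIPCe 1 it was 3. Without rIPCe 5 it was 2, and without control 2, 3, 4 or 5 or rIPCe 2 or 4 it was 0. Within slide 2 the median was 0.62. CXCL11, a ligand of CXCR3 that interferon gamma induces, read 6.94, 4.94, 5.15, 5.07 and 5.26 in control and 7.51, 7.60, 5.73, 8.74 and 7.83 in rIPCe. Every rIPCe array but rIPCe 3 lay above every control array, and the difference was 2.01 ± 0.83 (exact p = 0.0159). The related ligand CXCL9 was higher by 1.92 ± 0.98 without passing (exact p = 0.0556): it read 11.79 and 11.08 on rIPCe 4 and 5 and 6.86 to 9.19 on the other 8 arrays. CXCL10, the other ligand of that receptor, was higher by 1.04 ± 0.70 (exact p = 0.119), with control 1 at 13.15 against 10.96 to 11.28 on the other controls.

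CCL27, a chemokine best known from skin, fell. It read 11.26, 8.06, 9.51, 8.41 and 7.86 in control and 9.20, 6.33, 6.16, 5.57 and 6.16 in rIPCe, a difference of -2.34 ± 0.69 (exact p = 0.0317). Its rIPCe arrays 2 to 5 lay below all controls, and the difference was -0.63 within slide 2. The monocyte receptor CCR2 was higher by 0.91 ± 0.35 (exact p = 0.0635), and CXCL12, the ligand of CXCR4, by 0.61 ± 0.24 (exact p = 0.0635), but by 0.029 within slide 2.

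Other immune lists had few or no members past the criteria. Among 31 genes of the interferon response CXCL11 alone rose and the median was 0.093, and the receptor chain IFNGR1 was higher by 0.47 ± 0.17 (exact p = 0.0397), while its 3 other probes gave -0.046 to 0.17. Of 23 genes of antigen presentation 0 passed, 21 had a positive log2 fold change and the median was 0.33. Of 44 interleukins, TNF family members and receptors 0 passed and the median was -0.030, with IL4R, the receptor of interleukin 4, lower (-0.73 ± 0.23, exact p = 0.0635) and the costimulatory receptor CD40 higher by 0.71 ± 0.30 (exact p = 0.0714). Control 1 had the highest level of all 10 arrays for chemokines (0.96), the interferon response (1.03) and antigen presentation (0.92). The median of the interferon list was 0.37 without control 1 and 0.86 within slide 2, where control 5 had the lowest level of the 10 arrays (-0.55).

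Of 23 measured markers of macrophages and monocytes 2 rose, where 1.56% of all genes did. The log2 fold change was positive in 20 of the 23, and the median was 0.48. CD14, GPNMB and TREM2 were lower, at -0.57, -0.22 and -0.067, and CD163 and VSIG4 differed by 0.27 and 0.011. Without control 1, whose level of 1.10 was near the top of the rIPCe range of 0.11 to 1.11, 7 rose with a median of 0.72. The number that rose was 4 without rIPCe 5, and 0 without rIPCe 2 and 3 with a median of 0.27. Within slide 2 the median was 0.86. LYZ (lysozyme), which cuts bacterial cell walls and is abundant in macrophages and monocytes, read 13.13, 10.08, 9.90, 9.18 and 9.63 in control and 10.80, 12.97, 13.17, 12.45 and 13.30 in rIPCe. Without control 1 all rIPCe arrays lay above all controls, and the difference of 2.15 ± 0.73 (exact p = 0.0317) became 2.84; its other probes gave 1.80 to 2.13. CHI3L1, a chitinase-like protein of macrophages and injured tubules, rose by 1.68 ± 0.56 (exact p = 0.0238), and by 3.19 within slide 2. C1QB, a subunit of C1q that resident macrophages make, was higher by 0.79 ± 0.32 (exact p = 0.0556), the mannose receptor MRC1 by 0.46 ± 0.21 (exact p = 0.0159), and AIF1, the brightest member, by 0.29 ± 0.26 (exact p = 0.31).

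Among the lymphocyte markers 0 of 21 for T and NK cells and 0 of 7 for B and plasma cells passed, with medians of 0.39 and 0.57. The T and NK level was -0.50 on rIPCe 1 and 0.32 to 1.25 on the other rIPCe arrays, and 0.80 on control 1 and -0.35 to -0.11 on the other controls. BLNK, an adaptor of the B cell receptor, was higher by 0.70 ± 0.21 (exact p = 0.0159) and CD48 by 0.77 ± 0.38 (exact p = 0.0556). ADA2, a secreted adenosine deaminase of myeloid cells, rose by 1.14 ± 0.41, with control 1 at 11.89 above the rIPCe range of 10.83 to 11.49 and the other controls at 9.50 to 9.90. Of 11 neutrophil markers 0 passed and 4 had a positive log2 fold change, among them OLR1 (0.70) and LCN2 (0.52), and the median of -0.45 was -0.10 without rIPCe 4, -0.12 without rIPCe 5 and 0.33 within slide 2. S100A9 differed by -0.90 ± 0.50 (exact p = 0.143) and S100A8 by -0.97 ± 0.58 (exact p = 0.198), and within slide 2 both were higher, by 1.04 and 1.74. The leukocyte adhesion molecule VCAM1 of endothelium and injured tubules rose by 1.01 ± 0.29 (exact p = 0.0238), and by 1.40 within slide 2. MADCAM1, which also binds leukocyte integrins, was higher by 0.90 ± 0.31 (exact p = 0.0159). Of 24 genes of adhesion and leukocyte traffic VCAM1 alone rose, with a median of 0.18. Of 12 endothelial markers 0 passed, with a median of -0.084. Of 10 adipocyte markers RETN and of 17 skeletal muscle markers MYH4 fell, neither of them with a whole group of arrays well above background, with list medians of 0.052 and -0.086, and of 2 erythrocyte markers 0 passed.

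**Figure D4:**
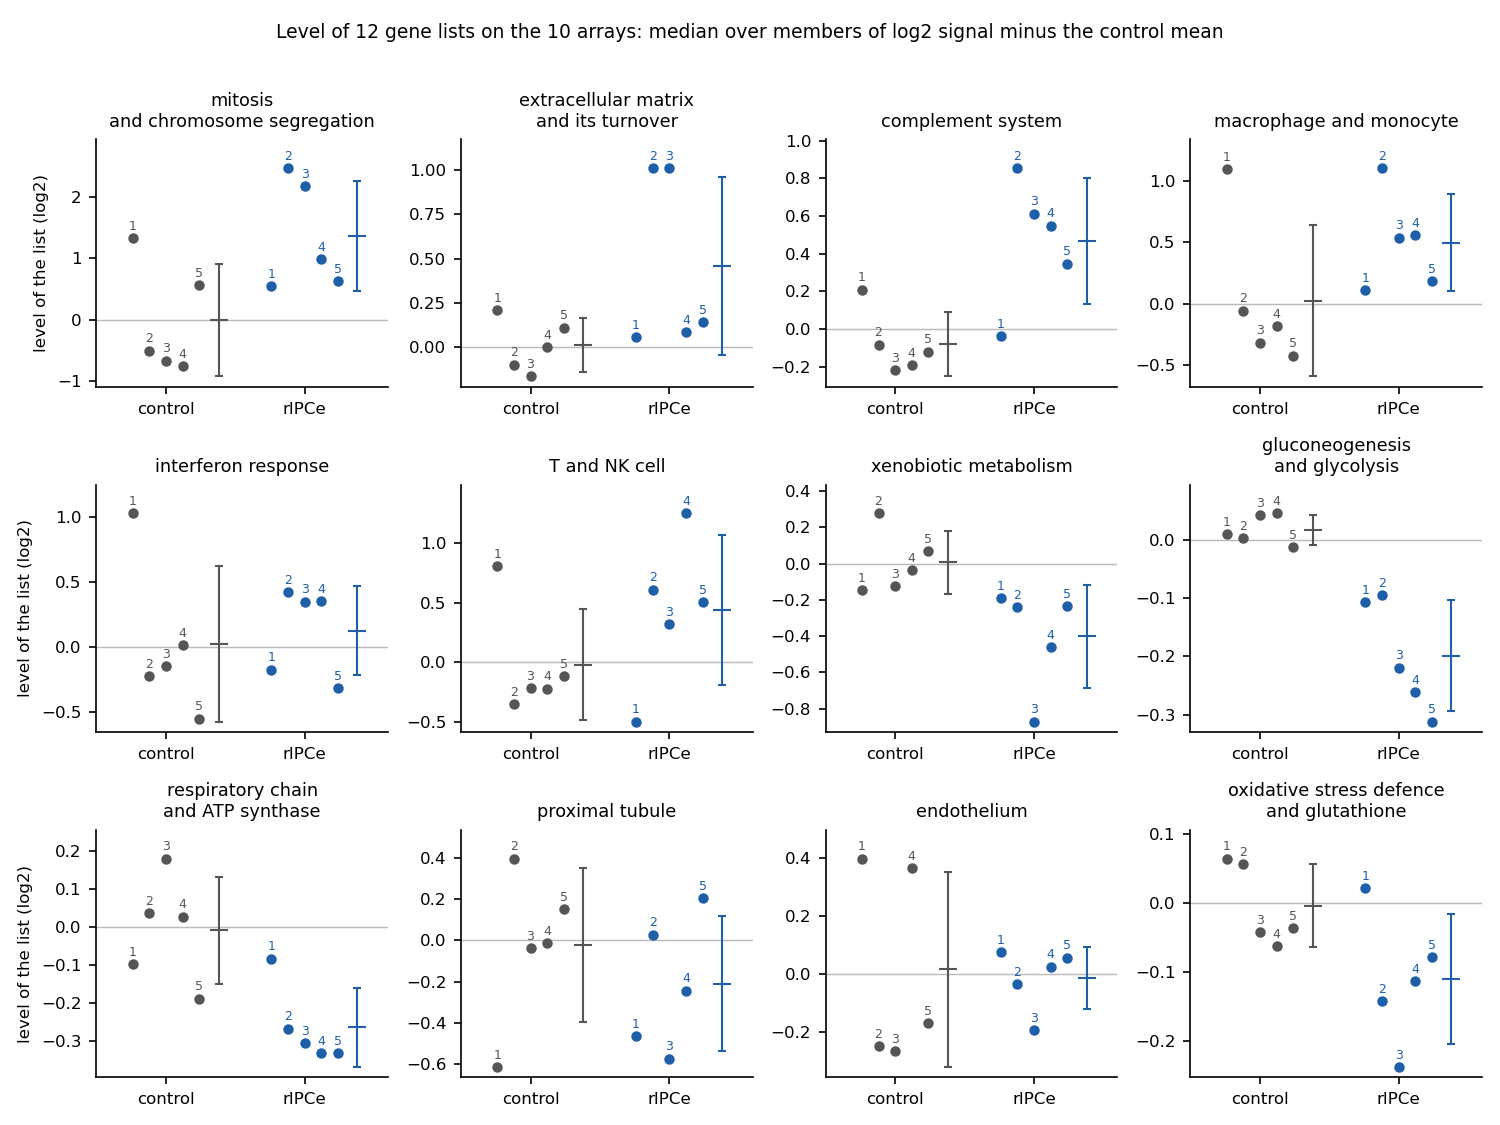
Level of 12 gene lists on each of the 10 arrays, as the median over the members of log2 signal minus the mean of the control arrays, with the replicate number beside each point and the mean ± SD at its right. Control 1 is the highest control array for macrophage, interferon and T cell genes, rIPCe 2 and 3 are highest for mitosis and matrix, and all rIPCe arrays lie below all control arrays for xenobiotic metabolism and for gluconeogenesis and glycolysis.

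Acute phase and injury genes were mixed, and of 23 in the acute phase and iron list 1 rose and 1 fell, with a median of -0.16. SAA3, a serum amyloid A made outside the liver, rose from 12.57, 8.41, 9.41, 9.38 and 9.73 in control to 11.51, 12.48, 12.74, 11.91 and 10.44 in rIPCe. Control 1 lay among the rIPCe arrays and all other controls below them, so that the difference of 1.92 ± 0.65 (exact p = 0.0556) was 2.58 without control 1, and the 4 other probes gave 1.74 to 1.83. ITIH4, an acute phase protein of plasma, fell by 1.08 on the log2 scale (SE 0.38, exact p = 0.0556), though its other probes gave -0.45 to -0.40. TTR (transthyretin) varied widely, from 9.53 to 13.16 in control and from 6.16 to 11.48 in rIPCe, a difference of -1.97 ± 1.00 (exact p = 0.103). In the list for tubular injury and repair 3 of 28 rose, where 1.56% of all genes did. The 3 were CLU, VCAM1 and the regeneration factor SOX9, the last being well above background on 1 control and 4 rIPCe arrays. The median of that list was 0.24. LCN2, the urinary injury marker lipocalin, was higher by 0.52 ± 0.54 (exact p = 0.444), and S100A6 was lower (-0.73 ± 0.28, exact p = 0.0635), with rIPCe 1 above all controls.

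Enzymes of xenobiotic metabolism were lower in rIPCe. Of 42 measured, 3 fell, 0 rose, 31 had a negative log2 fold change, 11 were lower at an unadjusted p under 0.05 and 0 higher, where 10.1% of all genes were lower by that measure, and the median was -0.42. The level of the list on all rIPCe arrays, from -0.87 to -0.19, lay below all control arrays, from -0.15 to 0.28. NQO1, the quinone reductase that NRF2 induces, read 12.50, 12.03, 11.95, 11.77 and 11.60 in control and 12.56, 8.29, 9.08, 8.69 and 8.87 in rIPCe. On rIPCe 1 it stood above every control array, and on the other 4 it was far below them. The difference was -2.47 ± 0.64 with all arrays (exact p = 0.0476), -3.24 without rIPCe 1 and -1.62 within slide 2.

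GSTO1, an omega class glutathione transferase, showed the same split of rIPCe 1 from the rest. It read 16.46, 16.88, 16.75, 16.75 and 16.64 in control and 16.65, 15.65, 15.19, 15.41 and 15.30 in rIPCe, a difference of -1.05 ± 0.25 (exact p = 0.0238) and of -1.31 without rIPCe 1. CYP1A1, the cytochrome that the aryl hydrocarbon receptor induces, read 7.22, 5.95, 8.56, 9.11 and 5.22 in control and 4.63, 6.00, 4.62, 3.43 and 5.47 in rIPCe. Here the groups overlapped, control 2 and 5 lay within the rIPCe range, and the difference of -2.38 ± 0.66 (exact p = 0.0397) was -0.14 within slide 2. AKR1CL1, an aldo-keto reductase, was lower, at -0.93 ± 0.31 (exact p = 0.0476), with rIPCe 1 at 17.10 and the other rIPCe arrays at 15.17 to 15.64.

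Of 33 genes of oxidative stress defence 1 rose and 1 fell, and the median was -0.11. The cytosolic superoxide dismutase SOD1 read 16.99, 16.84, 16.33, 16.71 and 16.58 in control and 16.75, 16.10, 15.75, 15.70 and 15.96 in rIPCe, a difference of -0.64 ± 0.20 (exact p = 0.0317). Thioredoxin TXN was lower, at -0.63 ± 0.20 (exact p = 0.0476) and its reductase TXNRD1 at -0.76 ± 0.31 (exact p = 0.0873). In all of these rIPCe 1 lay within the control range and the other 4 rIPCe arrays below every control. HMOX1, the heme oxygenase, was lower, at -0.34 ± 0.15 (exact p = 0.0714). DUOX2, a dual oxidase that makes hydrogen peroxide, rose by 1.81 ± 0.62 (exact p = 0.0556) and by 2.92 within slide 2, with 3 other probes at 0.49 to 1.46, and the related DUOX1 was higher by 0.94 ± 0.31 (exact p = 0.0238).

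The largest change among the named genes that passed was in APOA4, an apolipoprotein of triglyceride-rich particles. It read 12.09, 11.49, 12.23, 11.46 and 11.16 in control and 11.15, 7.43, 7.81, 6.40 and 6.52 in rIPCe. All rIPCe arrays lay below all controls, although rIPCe 1 lay just under control 5 and the other 4 lay far lower. The log2 fold change was -3.82 ± 0.70 (limma p = 8.09e-05, adjusted p = 0.166, exact p = 0.00794). It was -4.64 without rIPCe 1 and -2.36 within slide 2, and its other probe gave -3.79.

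APOC3, which slows the clearance of those particles, fell as well. It read 13.31, 13.81, 12.86, 11.90 and 12.50 in control and 11.83, 11.57, 10.13, 9.57 and 11.25 in rIPCe, with no overlap and a difference of -2.01 ± 0.55 (exact p = 0.00794); its other probe gave -2.05. Of 27 genes for apolipoproteins and lipid transport these 2 fell and 0 rose, and the median was 0.039. PLTP, the phospholipid transfer protein, was higher by 0.92 ± 0.32 (exact p = 0.0397), APOE by 0.84 ± 0.50 (exact p = 0.183), and PON2, a lactonase, was lower, at -0.58 ± 0.22 (exact p = 0.0397). PLIN2, which coats lipid droplets, fell by 1.17 on the log2 scale (SE 0.52, exact p = 0.103), with a difference of -0.17 within slide 2.

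In fatty acid oxidation and ketone metabolism 0 of 40 genes passed, 6 were lower and 1 higher at an unadjusted p under 0.05, where 10.1% and 5.99% of all genes were, and the median was -0.16. CPT2, the inner carnitine palmitoyltransferase of mitochondria, read 8.38, 9.32, 8.19, 8.72 and 8.11 in control and 8.03, 8.01, 7.02, 7.77 and 7.13 in rIPCe. Its groups were separate, at -0.95 ± 0.28 (exact p = 0.00794), with rIPCe 1 close under control 5. DBI, which carries acyl-CoA, was lower, at -0.94 ± 0.25 (exact p = 0.0238), CRAT, the carnitine acetyltransferase, at -0.48 ± 0.16 (exact p = 0.0159), and ACADM, the medium-chain dehydrogenase, at -0.48 ± 0.19 (exact p = 0.0476).

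In the respiratory chain 0 of 18 genes passed, 8 were lower at an unadjusted p under 0.05, where 10.1% of all genes were, and 15 had a negative log2 fold change, with a median of -0.26. COX6A1, a subunit of cytochrome c oxidase, read 17.34, 17.51, 17.35, 17.36 and 17.26 in control and 17.21, 17.08, 16.93, 17.02 and 16.97 in rIPCe. All rIPCe arrays lay below all controls, at -0.32 ± 0.10 (exact p = 0.00794). NDUFB6, of complex I, was lower, at -0.38 ± 0.11 (exact p = 0.0159), and CYCS, cytochrome c, at -0.51 ± 0.19 (exact p = 0.0397). Within slide 2 the median of the list was -0.11.

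For gluconeogenesis and glycolysis 0 of 28 genes passed and the median was -0.18. The level of the list was -0.31 to -0.095 on the rIPCe arrays and -0.013 to 0.045 on the controls, so the groups did not overlap, and within slide 2 the median was -0.017. G6PC, the last step of glucose release, varied most, from 10.17 to 13.78 in control and from 7.88 to 10.83 in rIPCe, at -1.48 ± 0.87 (exact p = 0.0952). In amino acid metabolism 1 of 31 fell: BHMT, which remakes methionine from homocysteine with betaine, read 13.06, 14.59, 14.15, 13.15 and 14.42 in control and 13.70, 12.62, 11.14, 12.80 and 12.45 in rIPCe, at -1.33 ± 0.47 (exact p = 0.0397). For BHMT rIPCe 2 to 5 lay below all controls while rIPCe 1 lay inside their range. GLUD1, glutamate dehydrogenase, was lower, at -0.77 ± 0.28 (exact p = 0.0873) and CTH, which makes cysteine, at -0.70 ± 0.27 (exact p = 0.0635), and 7 of the 31 were lower and 0 higher at an unadjusted p under 0.05, beside the same 10.1% and 5.99%.

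Of 79 genes with a solute carrier symbol, most of whose products sit in the plasma membrane and in those of mitochondria and other organelles, 1 rose and 2 fell, and the median was -0.11. At an unadjusted p under 0.05, 15 were lower and 3 higher, where 10.1% and 5.99% of all genes were. SLC26A4 (pendrin), the chloride and bicarbonate exchanger of intercalated cells, read 6.63, 6.68, 6.09, 7.17 and 7.08 in control and 4.95, 5.19, 5.12, 5.89 and 6.42 in rIPCe. It differed by -1.21 ± 0.35 (exact p = 0.0159), and by -1.99 within slide 2, with rIPCe 5 alone inside the control range. SLC22A8 (OAT3), which takes organic anions into proximal tubule cells, fell by 1.16 on the log2 scale (SE 0.45, exact p = 0.0397). SLC7A9, the cystine transporter subunit of the brush border, read 12.45, 13.30, 12.92, 13.25 and 12.76 in control and 12.47, 12.35, 11.52, 11.75 and 12.19 in rIPCe, a difference of -0.88 ± 0.25 (exact p = 0.0159). SLC9A3R1, a scaffold of the brush border, had separate groups at -0.47 ± 0.13 (exact p = 0.00794).

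The carrier that rose was SLC5A4, a relative of the sodium-glucose cotransporters, at 9.79, 10.87, 10.78, 11.14 and 11.33 in control and 10.92, 11.58, 12.83, 12.43 and 11.90 in rIPCe. The difference was 1.15 ± 0.36 (exact p = 0.0238), and 0.45 within slide 2. Among ion channels and pumps, with a median of -0.22, 1 of 32 fell, the potassium channel KCNA2, by 1.18 on the log2 scale (SE 0.44, exact p = 0.0635), but it differed by -0.034 within slide 2. ATP2B1, a calcium pump of the plasma membrane, had separate groups at -0.40 ± 0.10 (exact p = 0.00794). Over the cell type lists, 2 of 27 proximal tubule markers fell, BHMT and SLC22A8, with a median of -0.16, and 1 of 18 distal markers, SLC26A4, with a median of -0.12, while 0 of 3 podocyte markers passed. The proximal tubule level was -0.61 to 0.40 in control and -0.57 to 0.20 in rIPCe, and so did not separate the groups.

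**Figure D5:**
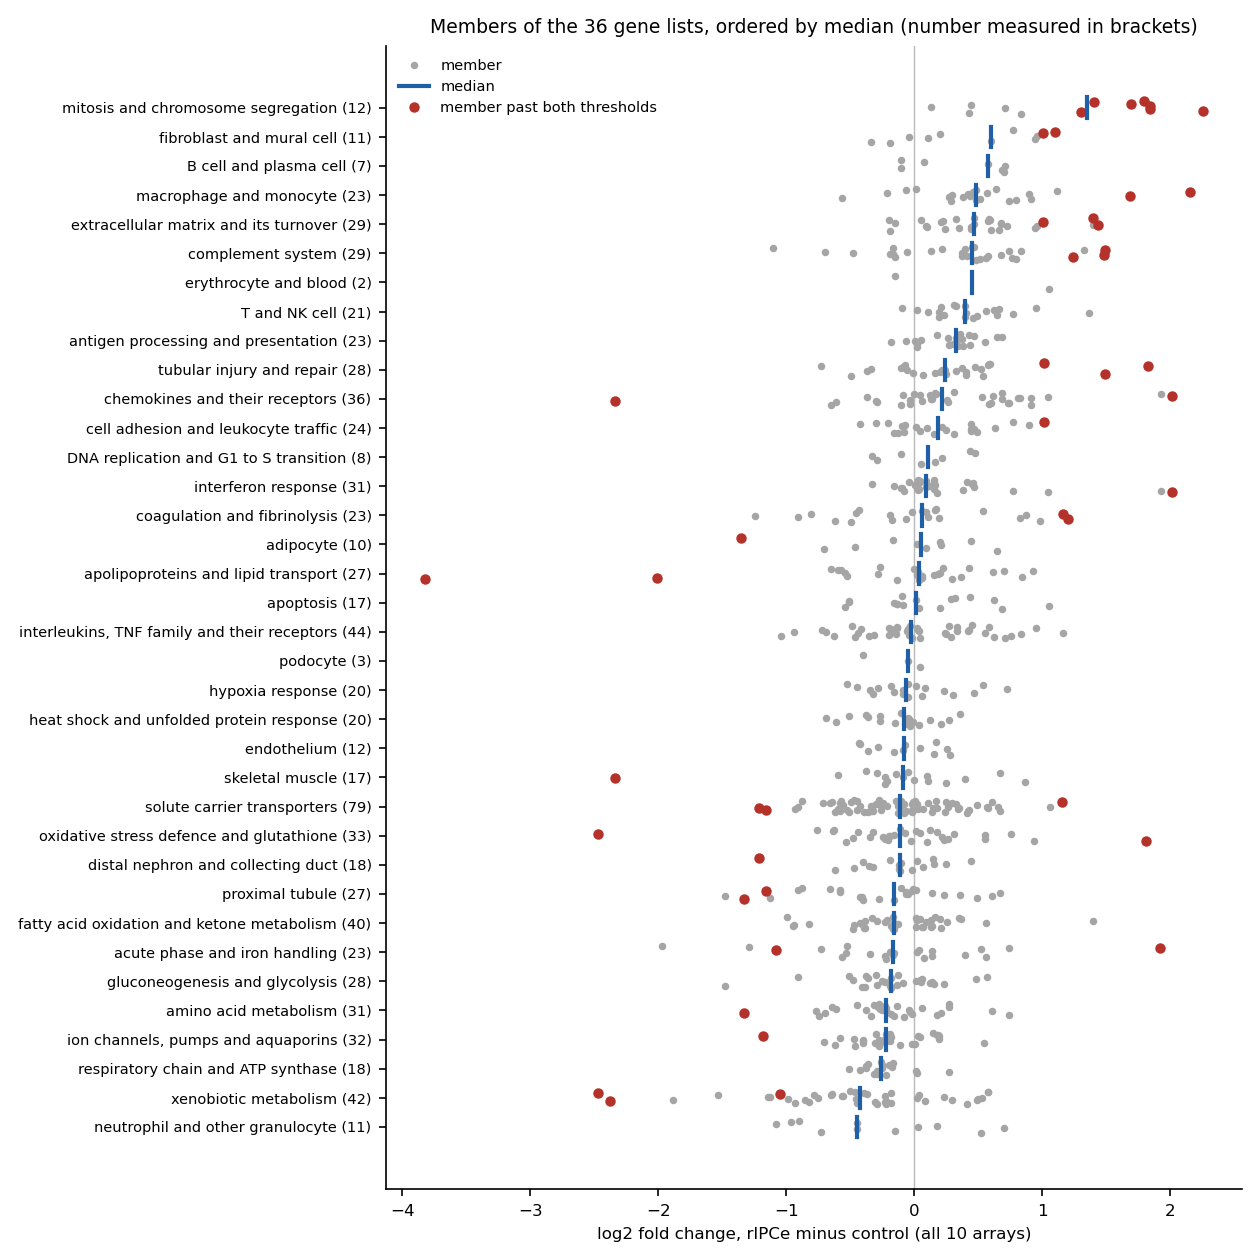
Log2 fold change of rIPCe over control for every measured member of the 36 gene lists, 1 row a list with its number of members in brackets, ordered by the median (blue bar). Red points met the 2-fold and unadjusted p criteria; the mitosis list has 7 of 12 such members and the highest median, 1.35, and the xenobiotic list has 3 of 42 with a median of -0.42.

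Stress and death lists had 0 members past the criteria. The median was -0.066 over 20 genes of the hypoxia response, -0.084 over 20 of the heat shock and unfolded protein response, and 0.0095 over 17 of apoptosis. HSPD1, the mitochondrial chaperonin, had separate groups, at 14.50, 14.86, 14.77, 14.59 and 14.57 in control and 14.47, 14.32, 13.96, 13.88 and 14.11 in rIPCe, a difference of -0.51 ± 0.14 (exact p = 0.00794). BID, a killer protein of the BCL2 family, was lower, at -0.55 ± 0.17 (exact p = 0.0238), and DIABLO, which blocks inhibitors of apoptosis, at -0.51 ± 0.17 (exact p = 0.0159).

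DKK2, a secreted antagonist of Wnt signalling, rose. It read 5.03, 4.08, 3.86, 2.92 and 3.79 in control and 6.95, 7.75, 6.07, 5.95 and 5.68 in rIPCe, so that no array overlapped. The probe was well above background on 1 control array and on all rIPCe arrays, so it passed the filter on dim genes through rIPCe alone and its control level is in part a reading of background. The log2 fold change was 2.54 ± 0.47 (limma p = 8.62e-05, adjusted p = 0.166, exact p = 0.00794) and 3.13 within slide 2. In 10 refits that each left out 1 of the arrays it ranged from 2.23 to 2.82.

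VDR, the vitamin D receptor, and RHOF, a small GTPase that forms filopodia, fell by just over 2-fold with separate groups. VDR read 7.44, 8.71, 7.89, 8.01 and 7.46 in control and 7.25, 6.76, 6.90, 6.91 and 6.62 in rIPCe (-1.01 ± 0.26, exact p = 0.00794). RHOF read 7.47, 8.26, 7.43, 7.92 and 7.11 in control and 6.97, 6.32, 6.63, 6.66 and 6.35 in rIPCe (-1.05 ± 0.21, exact p = 0.00794). Within slide 2 both stayed lower but by less than 2-fold, at -0.49 and -0.47.

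The remaining genes past the criteria, named after their values were seen, belong to no single list. DIO2, the deiodinase that activates thyroid hormone, read 7.33, 4.48, 6.14, 5.20 and 5.33 in control and 7.66, 8.94, 8.69, 5.98 and 7.07 in rIPCe, and rose by 1.97 ± 0.61. RGS4, a brake on G protein signals, rose by 1.23 ± 0.47 and by 2.67 within slide 2, and YPEL1 by 1.23 ± 0.31 with its other probe at 0.57. CLGN, a chaperone best known from testis, rose by 1.76 ± 0.47 and was well above background on 2 control arrays. MTFR2, SERPINB10, VPREB1 and CGA rose by 1.18 to 1.52. Of the genes that fell, UCHL1, a ubiquitin hydrolase, read 13.40, 12.82, 12.41, 13.32 and 12.66 in control and 13.22, 11.54, 11.63, 10.59 and 9.45 in rIPCe, at -1.64 ± 0.54 and -0.53 within slide 2. SPINK4, a serine protease inhibitor, fell by 1.85 on the log2 scale (SE 0.52), differed by -3.14 within slide 2, and was well above background on 2 rIPCe arrays. PLCD4, a phospholipase C, fell by 1.30 (SE 0.41).

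Several genes outside the lists had separate groups with a shift of less than 2-fold, and these too were chosen after their values were seen. TBK1, the kinase that turns on interferon genes, read 9.45, 9.64, 9.41, 9.60 and 9.31 in control and 9.09, 9.03, 8.97, 9.00 and 8.98 in rIPCe. Its difference of -0.47 ± 0.083 had the smallest limma p of all genes and an adjusted p of 0.166. HAS3, a hyaluronan synthase, read 5.39, 5.58, 5.17, 5.17 and 5.78 in control and 6.26, 6.23, 5.92, 6.23 and 6.29 in rIPCe, at 0.77 ± 0.15 (exact p = 0.00794). PDCD4, which restrains translation, was higher by 0.63 ± 0.15 (exact p = 0.00794), and HOXA4, a patterning factor, lower, at -0.46 ± 0.093 (exact p = 0.00794).

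Between the windows no gene passed after adjustment. Of 43603 probes, 229 met the unadjusted criteria in rIPCl against rIPCe, beside 952 in rIPCe against control. An unadjusted p under 0.05 was found for 1677 of the 43603, and 0 probes and 0 genes passed the adjusted criteria. Among the genes above, the difference of rIPCl from rIPCe was 1.41 ± 0.37 for C3, 1.44 ± 0.56 for CHI3L1, -1.05 ± 0.35 for SLC26A4 and -1.14 ± 0.47 for BHMT, each under an unadjusted limma p of 0.05 and each with an adjusted p of 0.979. For APOA4 (-0.88 ± 0.70), NQO1 (-0.67 ± 0.64) and CCNB1 (0.61 ± 0.73) the unadjusted p was above 0.05, which does not show that the windows act alike. Of the rIPCl arrays, rIPCl 1 lay on slide 3 with rIPCe 4 and 5 and the other 4 on a slide of their own, and slide was not a term of this comparison.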

How the data were processed

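The deposited scanner files hold fluorescence intensity per spot of a 1-colour Agilent pig array, 1 array for each of 15 pigs, which the authors extracted with Agilent Feature Extraction 11.0.1.1, per the submitters' processing notes. The deposited values per probe are the mean of the same processed intensity, before any scaling. The genome build was not given in the sources used here, and 0 of their columns lacked a sample.

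In R 4.3.3 with the data.table package (1.17.8), control spots (1417 of 45220) were left out, the processed signal of the others was taken to log2, spots called outliers were dropped from their array, all 15 arrays were quantile normalized and replicate spots were averaged per probe. A model with 3 group means was fitted with limma 3.58.1, and the code was tested on simulated data with known changes. A probe or gene met the unadjusted criteria with an unadjusted p under 0.05 and a fold of 2 or more. Adjusted p-values are Benjamini-Hochberg values over all probes, and a gene has the value of its probe. Exact two-sided permutation tests took all 252 assignments of 10 arrays to groups. The number of arrays limits the precision, and the median SE of a gene was 0.215.

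RefSeq accessions on the arrays gave 6686 of 43603 probes a pig symbol, and a gene was read from its probe of highest mean signal. Named genes were, among those with a whole group of arrays well above background, at most 14 in each direction past the criteria with separate groups, at most 4 of smallest p in each list, and the brightest markers of cell types. Other genes are named after their values were seen. The comparison, the lists and their members were chosen with earlier results of these data known.

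Alternatives were the upper quartile as scale, the 10 arrays alone, the deposited values per probe, outlier spots kept, dim probes left out, slide as a fixed or random block, a replicate block, the methods' t-test, array weights, a gene's mean over its probes and each array left out in turn. Chosen after the data were seen were normexp (offset 50) on the median signal, which took the place of the mean signal that these files do not hold, control 1 and rIPCe 1 left out together, and rIPCe 2 and 3 left out together. Sequences of the probes were not used here, and single values of some list members are not reported here.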

Additional observations from a re-analysis of the deposited data

Results flagged for a closer look

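In 336 groups of 5 arrays, which are 168 named genes in control and in rIPCe, single arrays were screened by Dixon's test. In 24 groups an array was set apart from the other 4 by a gap over the 95% limit, where chance gives about 1 group in 20. The genes were chosen on these same arrays and the groups are not independent, so that share is a rough guide and no test. Control 1 was that array in 12 and rIPCe 1 in 6. Markers of immune cells and of interferon made up most of those of control 1. Its log2 signal was 13.13 for LYZ against a nearest control of 10.08, 13.53 for the Fc receptor FCGR3A against 11.95, 13.2 for AIF1 against 12.18 and 11.89 for ADA2 against 9.90. The chemokines stood at 13.15 for CXCL10 against 11.28 and 6.944 for CXCL11 against 5.261. Of the T and NK cell list, CD48 stood at 11.82 against 10.50 and ICOS at 6.919 against 6.308. The adhesion molecule MADCAM1 stood at 8.548 against 7.736. The remaining genes of control 1 were BIRC5 at 11.74 against 10.37, F12 at 6.623 against 5.755, and the sorbitol dehydrogenase SORD, which was low at 12.3 against 12.9.

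On rIPCe 1 the enzymes NQO1 and AKR1CL1 stood high, at 12.56 against 9.084 and at 17.1 against 15.64. CCL27 was at 9.196 against 6.332 and CD46 at 5.579 against 5.195. BLNK was low at 10.55 against 11.1, and FCGR3A at 12.11 against 12.65. So rIPCe 1 lay toward the control arrays in NQO1, AKR1CL1, CCL27, CD46 and BLNK.

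Control 5 stood apart in F2R (9.536 against 7.969), in the adipose hormones LEP (8.602 against 7.909) and ADIPOQ (4.698 against 3.919), and in the glycolytic enzyme GPI (15.54 against 15.89). The remaining cases were CLDN5, a tight junction gene of endothelium, on control 4 (10.11 against 9.424) and the monoamine oxidase MAOA on rIPCe 3 (13.23 against 14.08). Why single arrays stood apart was not tested.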

How the results depend on the processing

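All 54 genes that rose or fell kept their sign in every setting, which reuses the arrays on which they were chosen and is no independent check. The counts of probes did not hold. The 952 probes at the unadjusted criteria became 432 without dim probes, 2557 with slide as a block, 564 by the methods' t-test, 179 with normexp on the median signal and 1786 without control 1 and rIPCe 1. The 1 probe past the adjusted criteria became 2 with the upper quartile as scale, 0 with the 10 arrays alone, 799 with slide as a block, 0 with a replicate block, 0 by the methods' t-test, 2 with array weights, 0 with normexp, 333 without control 1 and rIPCe 1, and 1 to 141 with each array left out, the most without rIPCe 1. The listed genes past the unadjusted criteria numbered 37, and became 63 with array weights, 96 without control 1 and rIPCe 1, 13 without rIPCe 2 and 3, and 28 (without rIPCe 3) to 70 (without control 1) with each array left out.

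With slide as a block the list medians that moved by more than the spread between arrays were 0.30 for interleukins, 0.86 for interferon response, 0.59 for tubular injury, -0.017 for gluconeogenesis, -0.11 for the respiratory chain, 0.27 for heat shock, 0.30 for apoptosis, 0.33 for neutrophils, 1.40 for erythrocytes and -0.28 for adipocytes. Others moved by less, and among them those of hypoxia (0.063) and endothelium (0.044) changed sign. The acute phase median was -0.30 without control 1 and rIPCe 1, normexp gave -0.085 for gluconeogenesis and 0.22 for B cells, the erythrocyte median was -0.15 without dim probes, and the adipocyte median ran from -0.13 to 0.13 with each array left out. The cause of these moves was not tested. Of 169 named genes, with slide as a block 88 kept their direction and their side of the threshold.

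The titles number the pigs within groups and name no pairs, and the samples were treated as unpaired. Same-numbered arrays did not deviate together (correlations of -0.104 to 0.0367), but so few values cannot exclude a pairing. With the replicate number as a block 903 probes met the unadjusted and 0 the adjusted criteria, and 38 listed genes the unadjusted ones. Normexp on the mean signal was not run, since the files hold no such column. Dim genes such as DKK2 are limited by signal over background.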

Other observations

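Some inflammatory genes not described above were higher in rIPCe without meeting the criteria. IL1B, the cytokine that inflammasomes release, read 8.05, 4.26, 4.90, 4.80 and 4.23 on the control arrays and 6.57, 7.49, 6.04, 6.48 and 5.45 on the rIPCe arrays, a difference of 1.16 ± 0.66 (exact p = 0.183). CASP1, the protease that matures it, read 10.55, 7.89, 7.65, 7.67 and 8.01 against 8.52, 10.16, 9.75, 9.53 and 9.07, a difference of 1.05 ± 0.51 (exact p = 0.127). In both genes control 1 was the highest of the 10 arrays and the other controls lay below every rIPCe array. IL10, an anti-inflammatory cytokine, differed by 0.75 ± 0.37 (exact p = 0.0794).

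Genes with separate groups below the controls, chosen after their values were seen, included FITM2, which helps form lipid droplets, at -0.96 ± 0.23, PEX3, which builds peroxisome membranes, at -0.47 ± 0.13, and FOLR2, a folate receptor, at -0.94 ± 0.34. Each had an exact p of 0.00794, and their adjusted limma p-values were 0.187, 0.190 and 0.245.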
